A study of Mus musculus with 2 samples.

Results

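The numbers miR-297, miR-466, miR-467 and miR-669 are those of the mouse miRNA cluster known from an intron of Sfmbt2, although some miRNAs so numbered have their genes on other chromosomes. They were taken from the deposited values by name, as every entry in which any of its names carries 1 of these 4 numbers, which gave 66 of the 831 entries. The values came from a miRCURY LNA Array, on which probes with locked nucleic acids capture short RNAs, hybridized with RNA of microvesicles (MVs). The MVs were spun from the medium of bone marrow mesenchymal stem cells (MSCs) at passage 3, taken from male C57BL/6 mice aged 4 weeks and grown for 48 h with 100 IU/ml erythropoietin (EPO-MVs) or without it (MSC-MVs). In both groups the medium held 10% fetal bovine serum, for which no removal of its own vesicles is given, and such a pellet mixes exosomes with vesicles shed from the cell surface. Each group had 1 array, so no difference has a replicate check, no test was possible, and EPO and the array cannot be told apart as sources of a difference. The deposited values hold miRNAs alone, so marker genes of MSCs could not be looked up in them.

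A miRNA is a short RNA cut from a hairpin precursor, whose left arm (5p) and right arm (3p) can each give a mature strand, and its seed, bases 2 to 8, pairs with target messenger RNAs. Sfmbt2 is a Polycomb-group gene that is imprinted and expressed from the paternal copy in the placenta. Its intron holds a rodent-specific array of miRNA genes that arose by repeated duplication, so that many hairpins are near copies of each other, and the cluster is best known for its activity in placenta and embryonic stem cells. EPO is the hormone that drives red blood cell formation.

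The name of the cluster held for most but not all of these entries, and "the cluster" stands here for all 66 entries with these numbers. By RefSeq's genes for GRCm38.p6, a mouse assembly, 72 miRNA genes lie within Sfmbt2 on chromosome 2, and all 72 carry 1 of the 4 numbers. The names of the 66 entries reached 70 of them. For 51 entries each matched gene copy lay within Sfmbt2, for 5 entries copies lay both within it and elsewhere, and for 9 entries the gene lay elsewhere only. The entry of miR-466a-5p alone had no gene of that name. RefSeq also lists Mir466, with no letter, within Sfmbt2. It was not matched to miR-466a, and such a match would place this entry within Sfmbt2, reach 1 more gene and give the other 3 entries that name miR-466a a further copy. By number the entries fell into 4 of miR-297, 26 of miR-466, 11 of miR-467 and 26 of miR-669, where the entry shared by miR-466m-5p and miR-669m-5p counts under both numbers. By arm they fell into 28 of 5p, 27 of 3p and 11 with no arm in the name. An entry with several names gives 1 value for all of them, as in the 9 entries that list more than 1 name. The entry of miR-669a-5p and miR-669p-5p stands for 14 gene copies within Sfmbt2 and that of miR-467a-3p for 10.

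Of the 75 names in these entries, 8 were matched to a mature sequence in RefSeq (GRCm38.p6), all of them from genes outside Sfmbt2. They are shown because they make visible what the repeats of the family look like, with the seed in capitals. The first 4 run on repeats of AC:
miR-466i-3p: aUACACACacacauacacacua
miR-466q: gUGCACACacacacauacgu
miR-467f: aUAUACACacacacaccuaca
miR-467g: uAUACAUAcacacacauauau
The other 4 run on repeats of UG:
miR-466j: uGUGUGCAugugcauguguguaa
miR-466k: uGUGUGUGuacauguacauguga
miR-467h: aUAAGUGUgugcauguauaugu
miR-669n: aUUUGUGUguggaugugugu

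No seed was found in more than 1 of these 8 sequences, and that of miR-467h, UAAGUGU, was also the seed of miR-668-5p. The mature strand of miR-466i-3p lies at chr13:17747552-17747573 on the plus strand, within Cdk13, and that of miR-466q at chr3:28419988-28420007, plus strand, within Tnik. For miR-467f it lies at chr11:69635419-69635439 on the minus strand within Fxr2, and for miR-467g at chr5:34732872-34732892 on the minus strand within Grk4. For miR-669n it lies at chr3:115979905-115979924 on the plus strand within Slc30a7. The other 3 lie within no protein-coding gene of the annotation, miR-466j at chr10:60960802-60960824, miR-466k at chr3:85467396-85467418 and miR-467h at chr9:115381898-115381919, all on the plus strand. The motif UGUGUG stood in miR-466j, miR-466k, miR-467h and miR-669n, and the motif ACACAC in the first 4. Among all 1679 mature mouse sequences of the table, read on the RNA strand given, 1.67% held UGUGUG and 0.655% held ACACAC. A match of these letters is a description of the sequence.

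Values are given in steps. A step is the smallest unit of an array. On each array every normalized intensity was a whole multiple of it, to within 0.0001 of it, so that a value of 1 equals 471 steps on the EPO-MV array and 447 steps on the MSC-MV array. Counted in steps, an intensity is free of the array's normalization factor, and the size of a step on the scanner's scale is not given in the sources used here. The ratio of EPO-MVs to MSC-MVs was taken from the normalized values, and equal steps on both arrays correspond to a ratio of 0.949. The brightness of different probes is not a measure of the relative amounts of different miRNAs, so intensities are set against each other only within an entry, and they tell how many steps a ratio rests on.

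The values of the cluster were close in EPO-MVs and MSC-MVs. Its entries had between 2 and 1995 steps in EPO-MVs and between 5 and 1933 in MSC-MVs, with medians of 393 and 397 steps. Of the 66 entries, 4 (6.06%) differed by at least 1.5-fold, 2 of them higher in EPO-MVs and 2 lower, whereas 25.4% of all 831 entries did (17.8% higher and 7.58% lower). At a threshold of 1.2-fold 3 entries of the cluster were higher and 10 lower, where 55.4% of all entries passed (33.5% higher and 21.9% lower). At 2-fold 1 was higher and 2 were lower, where 10.6% passed (8.06% higher and 2.53% lower). All 4 entries past 1.5-fold had fewer than 30 steps on at least 1 array. Of the 60 entries with at least 30 steps on both arrays none reached 1.5-fold, where 10.8% of all such entries on the arrays did. This held for the deposited scaling, while 1 of the 60 with re-centring on the median, and 3 with quantile normalization or lowess, were lower by at least 1.5-fold. Summed over the 66 entries, the normalized intensity was 76.1 in EPO-MVs and 79.4 in MSC-MVs, a ratio of 0.958, where the sum over all 831 entries had a ratio of 0.912. The sum over all entries is led by bright ones, as the 208 with the highest mean log2 intensity held 92.6% of it in EPO-MVs and 93.6% in MSC-MVs.

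**Figure D1:**
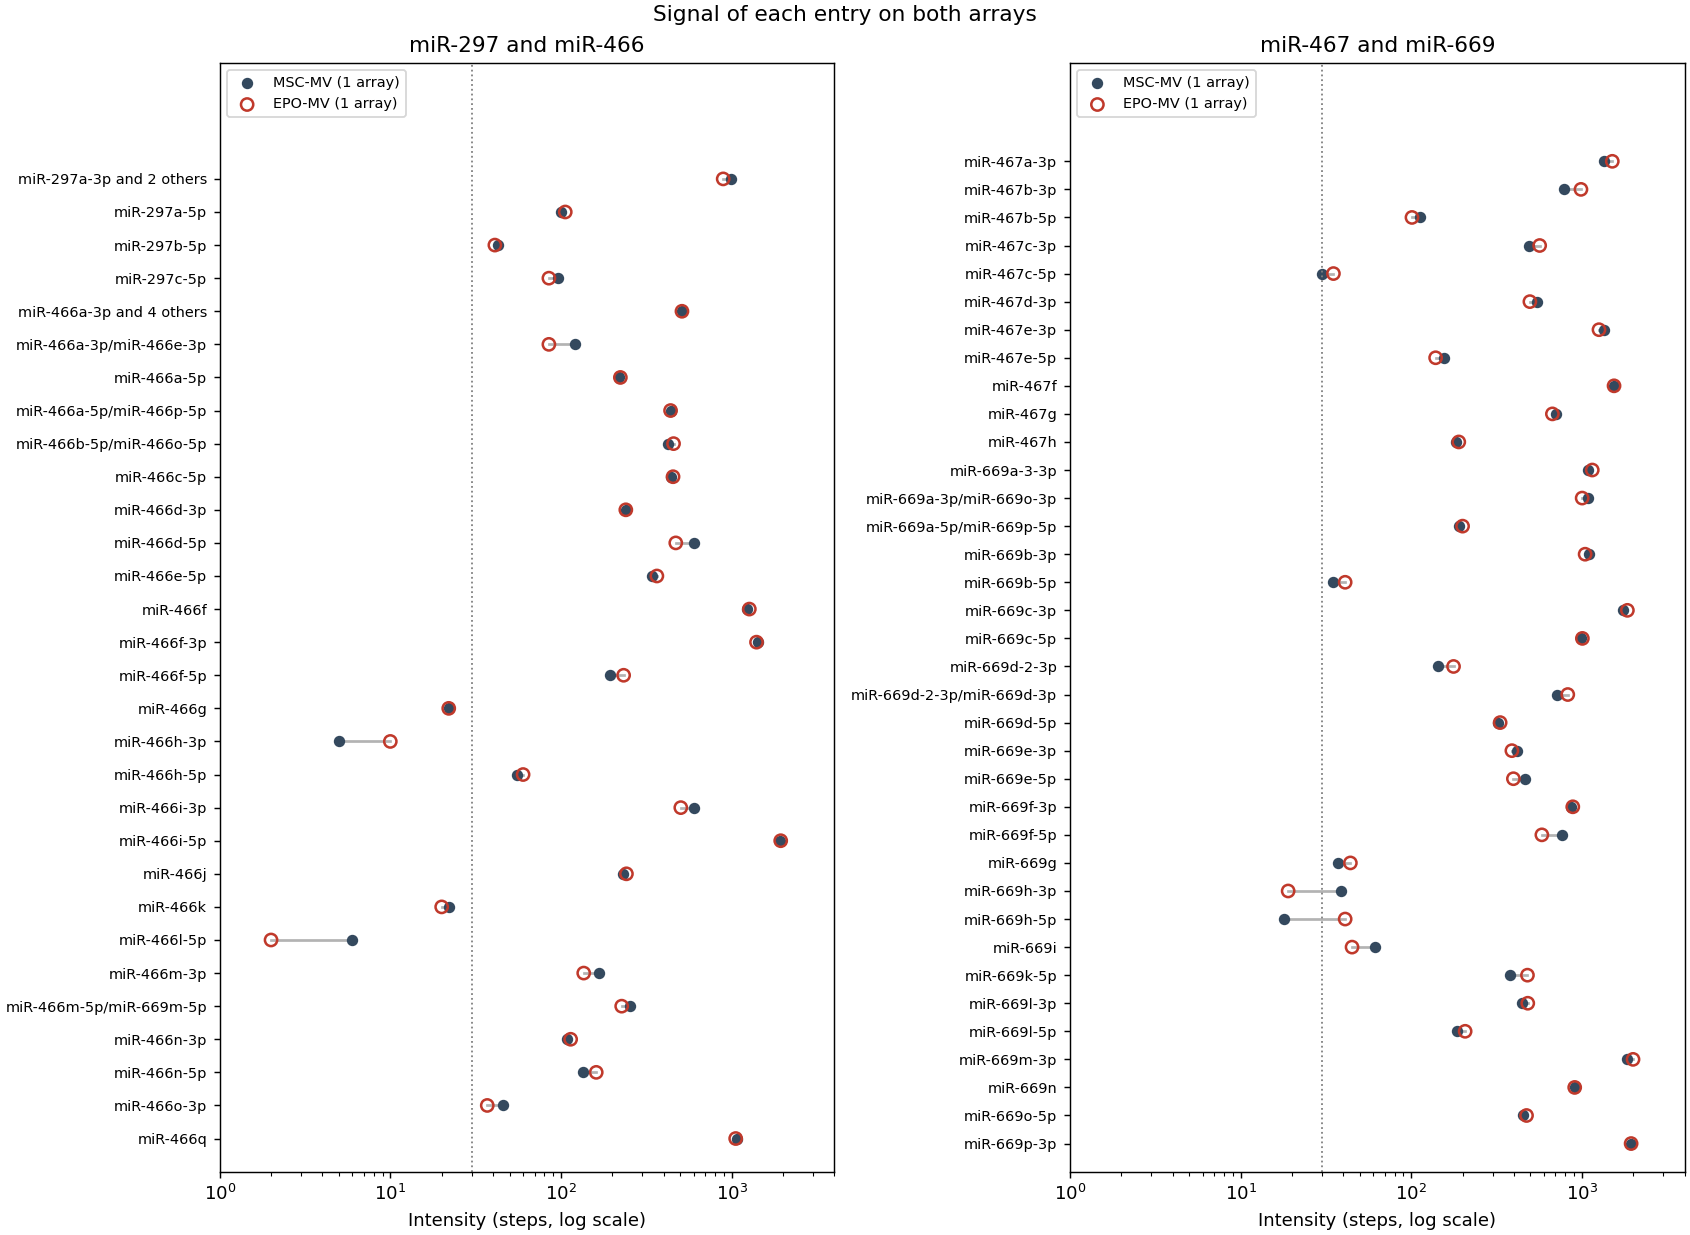
Intensity in steps (log axis) of each of the 66 entries in EPO-MVs (open red circles) and MSC-MVs (filled dark circles), 1 array each, joined by a grey line, with a dotted line at 30 steps. The circles nearly coincide for most entries, and the long lines belong to miR-466h-3p, miR-466l-5p, miR-669h-3p and miR-669h-5p, which lie at or below 41 steps (the entry shared by miR-466m-5p and miR-669m-5p is drawn with miR-466).

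Because dim entries differ more often on these arrays, the cluster was set beside all entries of like intensity. The 831 entries were ordered by the mean of their log2 intensities and divided into 4 bins of like size, and the cluster had 4 entries in bin 1 (the dimmest), 9 in bin 2, 27 in bin 3 and 26 in bin 4 (the brightest). In bin 1, 2 of 4 cluster entries reached 1.5-fold (61.1% of all entries there), and in bin 2, 2 of 9 did (22.1%). In bin 3 none of 27 did (9.66%), and in bin 4 none of 26 (8.65%). In bins 3 and 4 the ratios of the cluster also lay closer to 1 than those of all other entries as a whole. In bin 3 the median size of the log2 ratio, regardless of sign, was 0.09 for the cluster and 0.25 for the 180 other entries. In bin 4 it was 0.10 for the cluster and 0.22 for the 182 other entries. The cluster's members share sequence, so these entries are not independent, and whether the small spread differs from that of other entries was not tested.

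**Figure D2:**
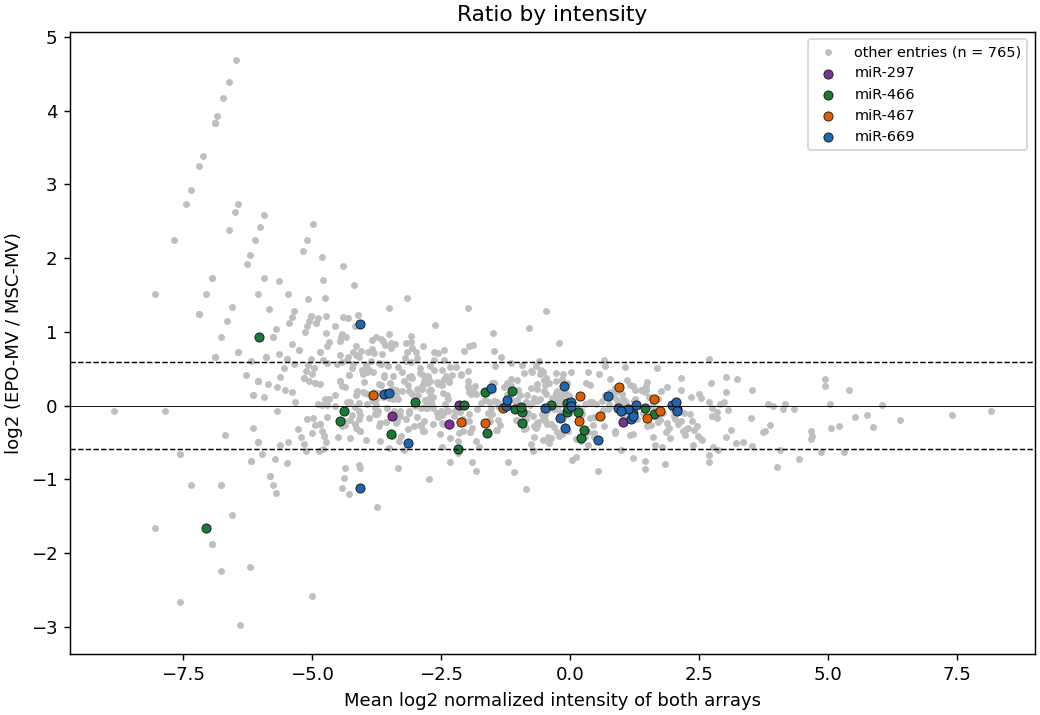
The log2 ratio of intensities, EPO-MVs over MSC-MVs, against the mean log2 normalized intensity, for the 66 entries of the cluster (coloured by number) and the 765 other entries (grey), with dashed lines at a fold change of 1.5. The coloured points above a mean log2 intensity of -3 keep within the dashed lines, while grey points lie outside them up to a mean of 5.31.

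The median log2 ratio of the 66 entries was -0.05 with the deposited values, but 0.01 after scaling to the 75th percentile and 0.03 for the steps without normalization, so that its sign depended on the scaling. Over all 831 entries it was 0.05, 0.10 and 0.13 in the same order. With the deposited values 43 of the 66 entries were lower in EPO-MVs by any amount, where 43.9% of all entries were, and without normalization 29 were lower, where 36.1% of all entries were. Relative to the median of all entries, the cluster's median stood lower by 0.10 on the log2 scale with the deposited values, and by 0.07 and 0.06 with quantile normalization and lowess. Brighter entries in general had lower ratios. In bin 4, 19 of the 26 cluster entries were below a ratio of 1 (63.0% of all entries there), with a median log2 ratio of -0.07 against -0.09 for all entries of the bin. In bin 3, 17 of 27 were (46.9%), with medians of -0.03 and 0.02. In bin 2, 4 of 9 were (33.7%), and in bin 1, 3 of 4 were (32.2%).

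The 4 entries past 1.5-fold came from 3 hairpins, and none of the 4 passed it with a pseudocount of 0.0573 added to every value. The arms of miR-669h moved in opposite directions. In EPO-MVs miR-669h-5p had 41 steps and in MSC-MVs 18, a ratio of 2.16, the highest of the cluster. For miR-669h-3p the values were 19 and 39 steps in the same order, a ratio of 0.462. For each arm 1 of the values was below 30 steps. For miR-466l-5p, from a hairpin whose 3p strand is known to act on the messenger RNA of interleukin-10 in macrophages, the values were 2 and 6 steps (ratio 0.316, the lowest of the cluster). For miR-466h-3p they were 10 and 5 steps (ratio 1.90, but 1.31 with quantile normalization and 1.2002 with lowess). Its partner miR-466h-5p, known to promote apoptosis in starved cells, had 60 and 55 steps, a ratio of 1.04.

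Just short of the threshold was the entry of miR-466a-3p and miR-466e-3p, with 85 steps in EPO-MVs and 121 in MSC-MVs (ratio 0.667, above the inverse of 1.5 only in the fifth decimal). With re-centring on the median its ratio was 0.644, past the threshold. The same names stand in a second entry together with miR-466b-3p, miR-466c-3p and miR-466p-3p, and that entry had 512 and 514 steps (ratio 0.945). The lower value therefore was not shared by the entry that covers more of the family. Another pair of entries holds miR-669d-2-3p, with 177 and 143 steps alone (ratio 1.17) and 827 and 717 steps together with miR-669d-3p (ratio 1.09), on the same side. A further pair holds miR-466a-5p, with 223 and 218 steps alone (ratio 0.971) and 439 and 442 steps together with miR-466p-5p (ratio 0.943).

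By number, the ratios of the 4 families overlapped, with medians from -0.18 to -0.02 on the log2 scale with the deposited values, though that of miR-669 was 0.03 after scaling to the 75th percentile and that of miR-467 was 0.0066 without normalization. The 4 entries of miR-297 had a median log2 ratio of -0.18. The brightest was the 3p entry shared by miR-297a, miR-297b and miR-297c, with 893 steps in EPO-MVs and 987 in MSC-MVs (ratio 0.859). Next came miR-297a-5p with 106 and 100 steps (ratio 1.01), the only miR-297 entry above 1. For miR-297c-5p the values were 85 and 96 steps, the lowest ratio of this number at 0.840, and miR-297b-5p had 41 and 43 steps (ratio 0.905). None of the 4 reached 1.5-fold, where 25.4% of all entries did. By intensity, 2 of the 4 lay in bin 3 and 1 in bin 4, where 9.66% and 8.65% of all entries did.

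The 26 entries of miR-466 had a median log2 ratio of -0.08, with 7 of them above a ratio of 1 and 2 past 1.5-fold (1 higher, 1 lower, as given above). Over all entries 56.1% were above 1 and 25.4% past 1.5-fold (17.8% higher and 7.58% lower). By intensity, 13 of the 26 lay in bin 3 and 7 in bin 4, where 9.66% and 8.65% of all entries were past it. The brightest miR-466 entries held almost level values. For miR-466i-5p, the partner arm of the miR-466i-3p sequence shown above, they were 1941 and 1910 steps (ratio 0.964), and for miR-466f-3p 1400 and 1435 steps (ratio 0.926). With 504 and 604 steps, miR-466i-3p had a ratio of 0.792. Of the other sequences shown, miR-466q had 1057 and 1074 steps (ratio 0.934), miR-466j 242 and 232 (ratio 0.990) and miR-466k 20 and 22 (ratio 0.863).

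The 11 entries of miR-467 had a median log2 ratio of -0.07, 4 of them were above 1, and none reached 1.5-fold. Over all entries 56.1% were above 1 and 25.4% reached 1.5-fold. By intensity, 3 of the 11 lay in bin 3 and 7 in bin 4, where 9.66% and 8.65% of all entries reached it. The 5 miR-467 entries of the 3p arm had ratios from 0.862 to 1.19. The highest was that of miR-467b-3p, with 988 and 788 steps (ratio 1.19). A strand of the miR-467b hairpin is known to repress lipoprotein lipase in macrophages, and which arm it is was not looked up here. The 5p arm, miR-467b-5p, had 101 and 112 steps (ratio 0.856). For miR-467a-3p, with 10 gene copies, the values were 1508 and 1343 steps (ratio 1.07). The lowest ratio was that of miR-467e-5p, with 139 and 156 steps (ratio 0.846). The 3 entries of this number whose genes lie outside Sfmbt2 had ratios of 0.953 (miR-467f, 1544 and 1537 steps), 0.905 (miR-467g, 672 and 705 steps) and 0.980 (miR-467h, 190 and 184 steps).

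The 26 entries of miR-669 had a median log2 ratio of -0.02, and 11 were above 1, where 56.1% of all entries were. The brightest were miR-669p-3p with 1944 and 1933 steps (ratio 0.954) and miR-669m-3p with 1995 and 1839 steps (ratio 1.03). Apart from the arms of miR-669h, the highest ratio was that of miR-669k-5p, with 480 and 379 steps (ratio 1.202). The lower end held miR-669i with 45 and 61 steps (ratio 0.7001) and miR-669f-5p with 583 and 766 steps (ratio 0.722). Its partner miR-669f-3p had 885 and 860 steps (ratio 0.977). The sequence of miR-669n is shown above, and it had 908 and 911 steps (ratio 0.946).

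The summed normalized intensities gave the same picture of small differences, with ratios of 0.871 for miR-297, 0.935 for miR-466, 0.984 for miR-467 and 0.966 for miR-669. These sums are led by the bright entries of each number.

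**Figure D3:**
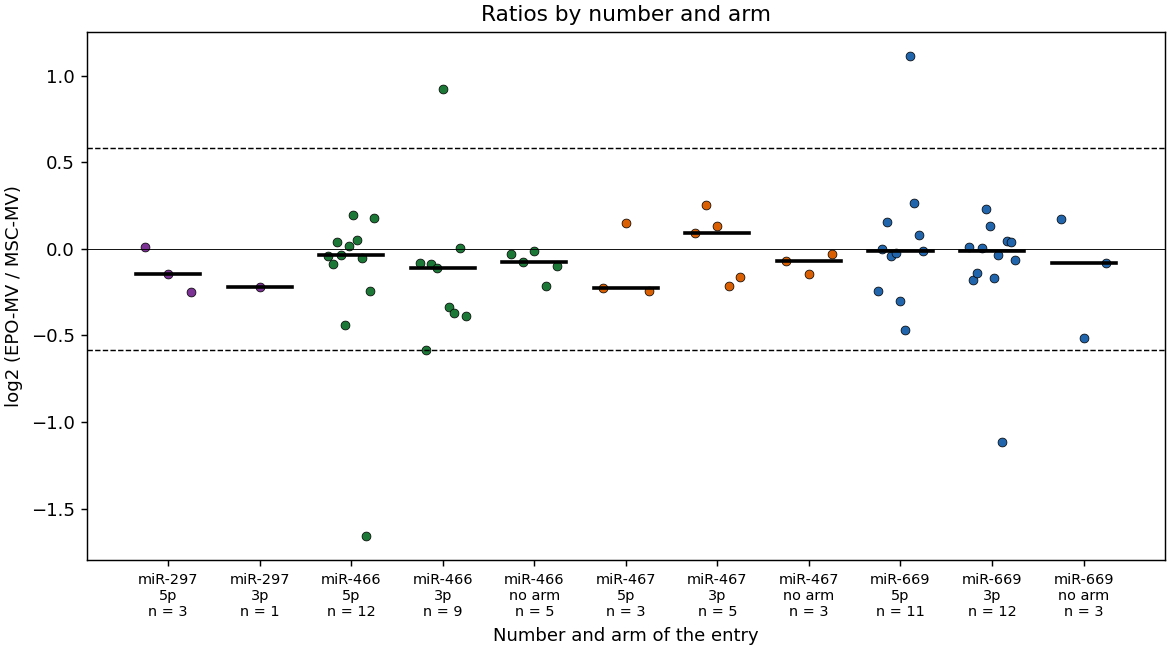
The log2 ratio of intensities, EPO-MVs over MSC-MVs, of each entry, by number and arm, with the median of each set as a black bar and dashed lines at a fold change of 1.5. The medians lie between -0.22 and 0.09, and the 4 points beyond the dashed lines belong to the 5p and 3p entries of miR-466 and miR-669 (the entry shared by both numbers is drawn under each).

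By arm, the ratios overlapped. The 28 entries of 5p had a median log2 ratio of -0.03, with 11 above a ratio of 1 and 2 past 1.5-fold (1 higher, 1 lower). The 27 entries of 3p had a median of -0.08, likewise with 11 above 1 and 2 past 1.5-fold (1 higher, 1 lower). The 11 entries without an arm in the name had a median of -0.08. With the deposited scaling 1 of them, miR-669g with 44 and 37 steps (ratio 1.13), was above 1, where 56.1% of all entries were. In steps, miR-466f, miR-466j, miR-467f and miR-467h were also higher in EPO-MVs. The other entries on the arrays had medians of 0.03 for 321 entries of 5p, with 53.0% above 1 and 26.5% past 1.5-fold, and of 0.09 for 322 of 3p, with 58.1% above 1 and 29.2% past 1.5-fold. The order of the arms depended on the scaling, as quantile normalization gave medians of -0.08 for 5p and -0.04 for 3p. The ratios of 5p rest on fewer steps, with medians of 225 (EPO-MVs) and 205.5 (MSC-MVs) against 566 and 604 for 3p.

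Where both arms of a hairpin were listed, they could be paired, which gave 32 pairs from 26 entries of 5p and 23 of 3p. In 20 pairs both arms lay on the same side of a ratio of 1, and in 12 on opposite sides. The 5p arm had the higher ratio in 21 pairs, and the median difference of the log2 ratios was 0.07. In 19 pairs the arms differed by less than 0.25 on the log2 scale, regardless of sign. They differed by at least 1.5-fold in 3 pairs. Those were miR-669h (2.23 on the log2 scale, 5p higher), miR-466h (0.87, 3p higher) and the entry of miR-466e-5p, with 365 and 343 steps, set against that of miR-466a-3p and miR-466e-3p (0.60, 5p higher). With at least 30 steps on all 4 values, 30 pairs were left, 19 of them on the same side of 1, and the largest difference was 0.60. Pairs share entries where an entry has several names, so the counts are of pairs and not of independent hairpins.

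**Figure D4:**
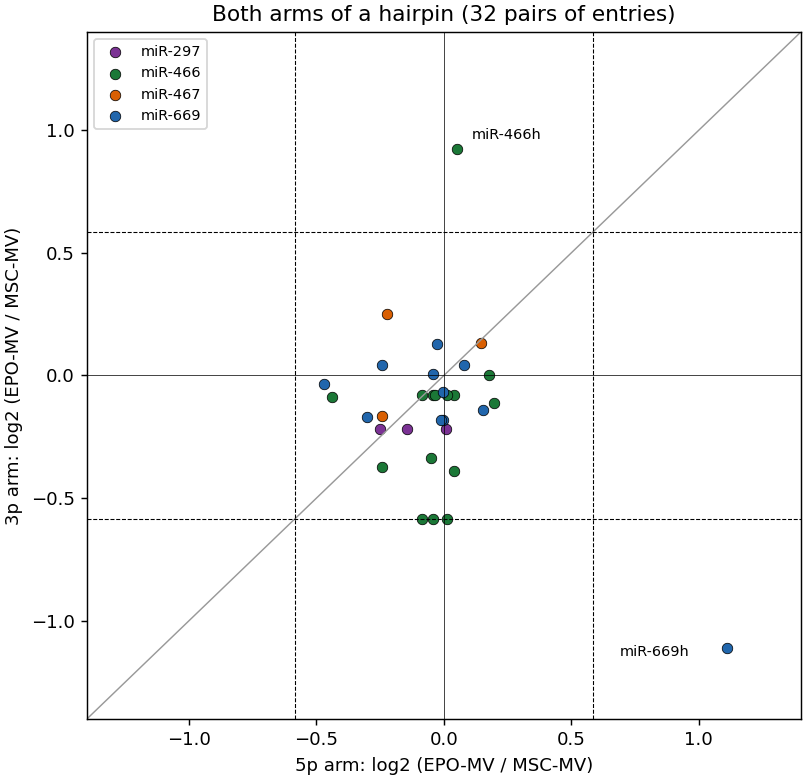
The log2 ratio of intensities, EPO-MVs over MSC-MVs, of the 3p arm against that of the 5p arm for 32 pairs of entries from the same hairpin, coloured by number, with dashed lines at a fold change of 1.5 and a grey line where both arms are equal. Most pairs cluster near 0, while miR-669h lies far off with its 5p arm higher and its 3p arm lower in EPO-MVs, and miR-466h with a higher 3p arm.

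The ratios of entries with genes within Sfmbt2 and with genes elsewhere overlapped. The 51 entries with all matched copies within Sfmbt2 had a median log2 ratio of -0.03 and held all 4 entries past 1.5-fold (7.84%, against 25.4% of all entries). The 9 entries with genes elsewhere had a median of -0.08, none past 1.5-fold, and ratios from 0.792 to 0.990, all below 1 with the deposited scaling. Over all entries 43.9% were below 1. Of the 9, 6 lay in bin 4, where 8.65% of all entries passed 1.5-fold and 63.0% were below 1. The count of 9 below 1 depended on the scaling. In steps, miR-466i-5p, miR-466j, miR-467f and miR-467h were higher in EPO-MVs, and with quantile normalization miR-466i-5p had a ratio of 1.06 and miR-467f of 1.05. Of the 9 entries, 7 have no arm in the name, so place and naming cannot be told apart here.

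The entries were also followed along Sfmbt2. The 72 miRNA genes were numbered in ascending order of position on the chromosome, and 40 entries had a single matched gene copy there. The last 7 genes, from Mir466g to Mir669h, a stretch chosen after the values were seen, had 7 of these entries, of which 4 were past 1.5-fold. By intensity, 3 of the 7 lay in bin 1, with 2 past 1.5-fold (61.1% of all entries there), and 4 in bin 2, likewise with 2 (22.1%). Their values ran from 2 to 60 steps in EPO-MVs and from 5 to 61 in MSC-MVs. The other 33 entries had 35 to 1849 steps in EPO-MVs and 30 to 1747 in MSC-MVs, and none was past 1.5-fold (10.8% of all entries with at least 30 steps on both arrays). The low number of steps moved with the large ratios in this stretch, and its part in them was not tested. With 22 steps on each array, miR-466g, the first of the stretch, had a ratio of 0.949.

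**Figure D5:**
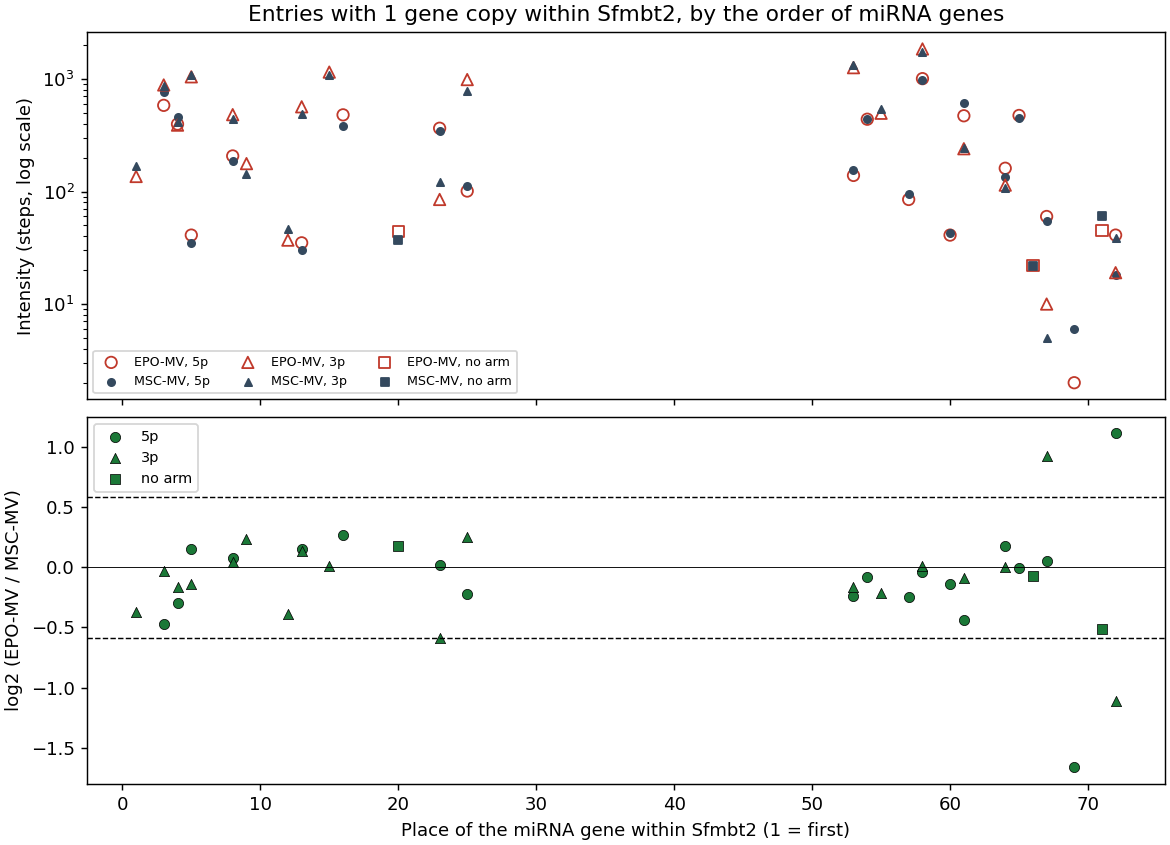
Intensity in steps (log axis, upper panel; EPO-MVs open red, MSC-MVs filled dark) and log2 ratio, EPO-MVs over MSC-MVs (lower panel, dashed lines at a fold change of 1.5) of the 40 entries with a single matched gene copy within Sfmbt2, by the place of the gene among 72 miRNA genes. Entries at places 66 to 72 lie at or below 61 steps and include the 4 points beyond the dashed lines, and the empty middle holds the repeated copies that share entries.

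For comparison, entries of the imprinted Dlk1-Dio3 cluster, another large miRNA cluster, were taken by a list of miRNA numbers, which gave 66. The list was not checked against gene positions and may leave out members, so this size and the counts below depend on it. Of its 66 entries, 18 (27.3%) differed by at least 1.5-fold, 17 higher and 1 lower in EPO-MVs. That share was near the 25.4% of all entries (17.8% higher and 7.58% lower), while 4 of 66 did here. Its ratios rest on fewer steps, with medians of 58 and 43.5. All 18 lay in the dimmer bins, 12 of its 21 entries in bin 1 (61.1% of all entries there) and 6 of its 25 in bin 2 (22.1%). In bins 3 and 4, with 10 of its entries each, none reached 1.5-fold, as in the Sfmbt2 cluster. The median size of its log2 ratio regardless of sign was 0.15 in bin 3 and 0.05 in bin 4, the latter below the 0.10 of the Sfmbt2 cluster. In bin 3 its 10 entries were all above a ratio of 1, with a median log2 ratio of 0.15, while 10 of the 27 entries of the Sfmbt2 cluster there were, with a median of -0.03. In bin 4, 7 of its 10 entries were above 1 and 7 of 26 here. Of the 11 entries of the miR-290 cluster, known from embryonic stem cells, 5 (45.5%) were at least 1.5-fold higher, against 17.8% of all entries, and none lower. Of these 11, 3 lay in bin 1 and 6 in bin 2, the bins in which 61.1% and 22.1% of all entries passed in either direction. The difference between the clusters was not tested, since each condition had 1 array.

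Outside the cluster, 11 entries whose matched sequence holds UGUGUG had a median log2 ratio of -0.04 and a median size of 0.09 regardless of sign. Among them miR-574-5p had 496 and 485 steps (ratio 0.971) and miR-1187 336 and 379 steps (ratio 0.841). The 1 that reached 1.5-fold was miR-294-3p, with 10 and 6 steps (ratio 1.58). Another 5 entries hold ACACAC, and their ratios ran from 0.458 to 1.45 with a median log2 ratio of 0.43, so that 4 were above 1 and miR-362-3p, with 177 and 367 steps, was the lowest. The 4 sequences with ACACAC printed above had ratios from 0.792 to 0.953 with the deposited values. These 4 all lay in bin 4 and the other 5 in bins 2 and 3, and brighter bins had lower ratios over all entries, so the motif groups are not alike in intensity. The 656 entries with a sequence and neither motif had a median size of 0.33 and medians of 81 and 70.5 steps, fewer than the 496 and 485 of the UGUGUG entries.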

How the data were processed

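RNA of EPO-MVs (1 array) and MSC-MVs (1 array) was labelled with the dye Hy3 and hybridized to the miRCURY LNA Array (version 18.0) by the authors. The authors scanned the arrays, read the images with GenePix Pro 6.0, averaged replicate spots and divided by a factor from the miRNAs of intensity of at least 30 in all samples (median normalization). The deposited unit is this normalized intensity, linear. Background subtraction and the choice of listed miRNAs are not given in the sources used here. The array number limits the precision, and no depth applies.

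Ratios were computed over all 831 entries, with a fold change of at least 1.5 called, as in the study's fold change filter, and no p-value. The members, the comparison lists and the rule for named entries were chosen with earlier results of these data known. The rule names, for each number, the 2 brightest entries and the highest and lowest ratio, the 5 highest and 5 lowest ratios of the cluster, entries past 1.5-fold with at least 30 steps on both arrays, and hairpins whose arms lie on opposite sides of 1 with 1 past 1.5-fold, ties going to the brighter entry. This gave 20 entries. Others are named as partner arms, repeated names, printed sequences or neighbours, chosen after their values were seen. Gene names, order and sequences came from RefSeq (GRCm38.p6), and 2 of 75 names matched no gene. The 11 other settings and 1 more chosen after seeing the data are in the closing section. Counting was tested on simulated data. Tables were handled in pandas 2.3.3 and numpy 2.4.6 under Python 3.11.15. Intervals used scipy 1.17.1, lowess statsmodels 0.14.6, and plots matplotlib 3.10.9.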

Additional observations from a re-analysis of the deposited data

How the results depend on the processing

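The 4 cluster entries past 1.5-fold became 13 (3 higher, 10 lower) with the threshold at 1.2 and 3 (1 higher, 2 lower) with it at 2. None was left with at least 30 or 60 steps on both arrays, among entries above the median intensity, or with a pseudocount of 0.0573 (0 in each), because the dim entries are left out or shrunk by construction. The count was 4 to 6 under re-centring on the median, scaling to the 75th percentile, quantile normalization, lowess and the steps without normalization. Quantile normalization and lowess gave 1 higher and 5 lower, against 2 and 2 with the deposited values. Re-centring gave 2 higher and 3 lower, with the entry of miR-466a-3p and miR-466e-3p (0.644) past the threshold. With quantile normalization and lowess, miR-466h-3p fell below it (1.31 and 1.2002), while miR-669i (0.615 and 0.620), miR-466o-3p (0.651 and 0.658, chosen after its values were seen) and the entry of miR-466a-3p and miR-466e-3p (0.619 and 0.630) passed it. The cause was not tested.

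The median log2 ratio of the cluster, -0.05 with the deposited values, became 0.0058 with scaling to the 75th percentile. The median of miR-297 became -0.29 with quantile normalization and -0.25 with lowess. With the steps without normalization, an alternative chosen after seeing the data, the medians were 0.028 for the cluster, -0.0028 for miR-466, 0.057 for miR-669 and 0.045 for 5p. The median also turned from below to above 0 for 5p (0.023) and miR-669 (0.035) with scaling to the 75th percentile, and for miR-467 (0.0066) without normalization. All other medians by number and by arm stayed below 0 under the settings run on them. Restriction to the 56 entries with a gene within Sfmbt2 left 4 past 1.5-fold and a median of -0.03. None of the 4 entries turned its direction under these settings. Dim entries rest on few steps, and no level of background is listed. No paired analysis was possible because there was 1 array of each kind.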
